A study of Olea europaea with 24 samples.

Results

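The comparison follows 3 drying olive trees (Olea europaea), numbered 4, 8 and 12, over the 14 days from 23 May to 6 June. Its members are the 6 branch libraries of these trees on these days, 1 library per tree and day, chosen by the tree and day in the sample labels, out of 24 libraries in all. The study sequenced RNA from branches of 6 trees, each sampled on 7 May, 23 May, 6 June and 29 July. Watered trees 3, 9 and 11 received 1.2 litres per day, and the dried trees received 1 litre per week for 2 weeks and no water for the following 2 weeks. Which sampling days fall into which of these weeks is not stated, and neither are the cultivar and the age of the trees. Season and drying move together between the days within the dried trees. A branch holds several tissues, and fewer cells of a type cannot be told apart from less RNA per cell. The files name only carbohydrate genes, so the labelled tissue could not be checked against marker genes.

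Woody plants store carbon as starch in plastids. ADP-glucose pyrophosphorylase makes the sugar nucleotide from which starch synthases extend glucan chains, branching enzymes and isoamylases shape the granule, and plastid transporters bring in glucose phosphate. Beta-amylases release maltose from starch, a maltose exporter carries it to the cytosol, and a disproportionating enzyme processes it there. Invertases split sucrose into glucose and fructose, sucrose synthases split it into fructose and a sugar nucleotide, and hexokinases phosphorylate the hexoses so that they can enter metabolism. Drought is known to shift woody plants from storing starch towards releasing soluble sugars. The authors gave short names to 97 rows of these families, and the family of a row is read here from that name. The count table pairs the remaining 50566 row IDs with no names.

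No row passed the test between 23 May and 6 June in the dried trees, among the 26659 rows tested or the 84 tested carbohydrate rows (edgeR quasi-likelihood test with the tree as a block, Benjamini-Hochberg adjusted p under 0.05, 0% of rows called, smallest adjusted p 0.191). Of all rows, 2546, or 9.55%, had an unadjusted p under 0.05, 1395 of them with higher and 1151 with lower values on 6 June. DESeq2 with the tree as a block called 545 rows (2.27%), 368 higher and 177 lower. The call thus differed between these fits, which differ both in the tool and in the filter on low counts. Of the 545 rows 527 were also tested by edgeR, so its filter had not removed them. EdgeR with no filter also called rows, as given with the other alternative fits at the end. How much the tool and the filter each contributed was not tested. The carbohydrate rows that DESeq2 called were gpt3, higher on 6 June, and hexokinase9, starchsyn2, starchsyn3 and sbe4, lower on 6 June. Invertase1, invertase2 and invertase8, 3 of the 4 tested invertase rows, had higher values in all 3 trees on 6 June, with no call by either tool.

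Of the 84 tested carbohydrate rows 25 had a positive log2 fold change, 29.8%, against 51.2% of all rows, and 59 had a negative one, 70.2%, against 48.8%. Their median was -0.48 against 0.03 over all rows. One of the positive rows, bamylase4, had no counts on either day, so its sign is no measurement. The 3 values of 6 June lay wholly above those of 23 May in 4 carbohydrate rows (4.76%, against 7% of all rows). They lay wholly below in 13 (15.5%, against 5.58% of all rows). An unadjusted p under 0.05 was reached by 17 rows, 3 higher (3.57%, against 5.23% of all rows) and 14 lower (16.7%, against 4.32%). The sign was the same in all 3 trees for 6 higher rows (7.14%, against 13% of all rows) and 19 lower ones (22.6%, against 12.6%), where 25.6% of all rows kept 1 sign. A change of at least 1 log2 unit in 1 direction in every tree was seen in 3 higher and 3 lower rows, against 2.62% and 1.65% of all rows, 4.26% together. The authors chose and named these rows, and how they chose them is not stated. Reads of near-identical family members can be split between their rows. A balance towards negative values was also present from 7 to 23 May in the dried trees. There 57 of the 84 rows were negative (median -0.48, against -0.27 over all rows). In watered trees from 23 May to 6 June 45 of the 84 were negative (median -0.11, against 0.01 over all rows).

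**Figure D1:**
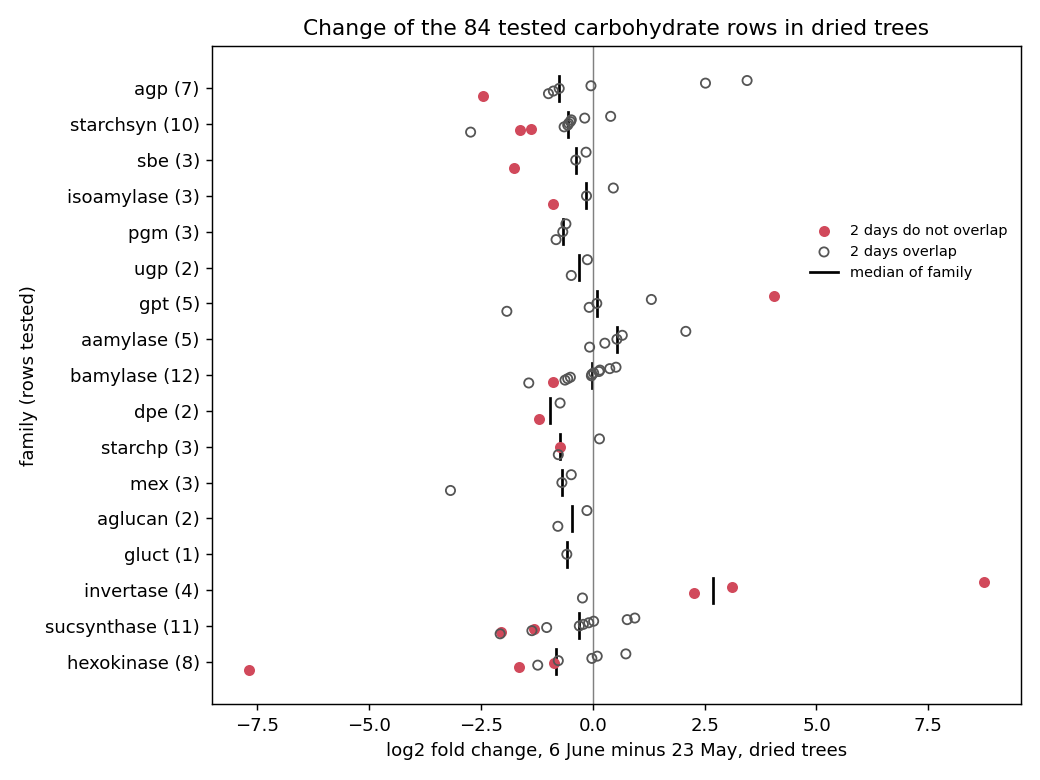
Log2 fold change from 23 May to 6 June in dried trees (x axis) of each of the 84 tested carbohydrate rows, by family (y axis, number of rows tested in brackets). Filled points are the 17 rows whose 3 values of 6 June and 3 values of 23 May do not overlap, open points overlap, and bars mark family medians; invertase1 (8.74) lies farthest right, and hexokinase9, whose fitted value of -7.68 rests on 0 counts on 6 June and is no measure of size, farthest left.

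The trees did not move together. Across the 26659 rows, the change from 23 May to 6 June correlated at r = 0.01 between trees 4 and 8, 0.08 between trees 4 and 12 and 0.19 between trees 8 and 12. These changes share no library, and genes are not independent replicates. Over all rows tested the median change was -0.18 in tree 4, 0.26 in tree 8 and -0.01 in tree 12. Of the 84 carbohydrate rows, 63 were lower and 19 higher on 6 June in tree 4 (median change -0.78), 36 lower and 44 higher in tree 8 (0.31), and 47 lower and 36 higher in tree 12 (-0.18). The balance towards lower values was thus largest in tree 4, and without that tree 48 of the 84 rows were negative in place of 59. On the authors' scaled values 50 were negative. The 6 libraries correlated at r = 0.69 to 0.89 across rows. The lowest value was that of the 2 libraries of tree 8, and the highest joined tree 4 on 23 May with tree 12 on 6 June.

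Composition also differed. The 29 rows that held at least 1% of any library's count, none of them named, took 51.9%, 86.5% and 69.3% of the count in trees 4, 8 and 12 on 23 May. On 6 June they took 91%, 62.8% and 68.2%, so the share was higher in tree 4 and lower in tree 8. Total counts were 7277262 to 12025731. Outside these rows 988254 counts remained in tree 8 on 23 May and 1077796 in tree 4 on 6 June, compared with 2665843 to 3821037 in the other 4 libraries. In the 23 May library of tree 8, 20 of the 84 carbohydrate rows had no count, against 3 to 9 in each of the others. No row was called without the first, without the second or without both (smallest adjusted p 0.193, 0.279 and 0.37 by edgeR), or without the 29 rows (0.196).

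**Figure D2:**
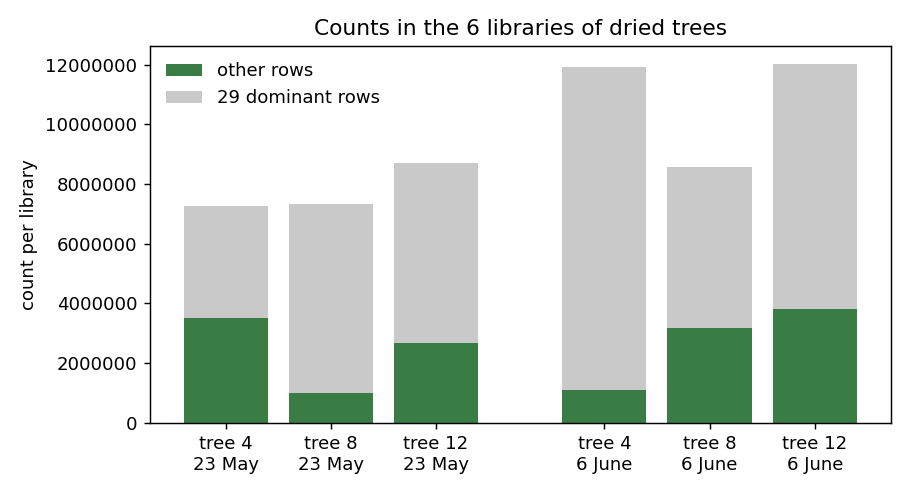
Total count per library (y axis, counts) of the 6 libraries of dried trees, by tree and day (x axis), split into the 29 rows that hold at least 1% of any library and all other rows. The part left for other rows is smallest in tree 8 on 23 May (988254) and in tree 4 on 6 June (1077796).

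Of the sucrose-splitting rows, invertase1 had the largest log2 fold change of any tested carbohydrate row. It had 1, 1 and 0 counts on 23 May and 21, 1081 and 56 on 6 June in trees 4, 8 and 12. All 3 trees stood higher on 6 June and the days did not overlap, with tree 8 far above the others. In pooled counts the ratio was 610 (exact 95% binomial interval 169 to 5040, counting error only; 1158 counts against 2), and tree 8 gave most of the higher sum. The log2 fold change was 8.74 ± 2.14 (SE, n = 3 trees; edgeR adjusted p = 0.315). Tree 12 had already held 92 counts on 7 May, when trees 4 and 8 had 0.

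Invertase2 stood at 4.45, 5.23 and 0.63 log2 CPM on 23 May and at 6.72, 8.78 and 6.42 on 6 June. Invertase8 stood at 4.24, 5.25 and 2.00 and then at 6.00, 7.66 and 5.50. For both rows every June value lay above every May value, tree 12 was lowest in May and tree 8 highest in June. Their log2 fold changes were 3.12 ± 1.69 and 2.27 ± 1.39 (SE, n = 3; edgeR adjusted p = 0.585 and 0.622). By 29 July they had means of -0.84 ± 0.37 and 0.34 ± 0.73 log2 CPM (SD, n = 3), below all 6 values of the earlier days. On 7 May tree 12 was far above the other trees for both, at 6.87 against -0.72 and 0.12 for invertase2 and 6.32 against -0.02 and 1.00 for invertase8. In tree 12 the 7 May values lay above those of 6 June. With no filter on low counts edgeR called all 3 of these invertases, and with the 6 libraries alone it called invertase1 (7.60 ± 0.71, adjusted p = 0.0338).

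Invertase11 behaved otherwise between the same days. It stood at 4.58, 4.56 and 4.15 log2 CPM on 23 May and at 3.16, 4.94 and 4.24 on 6 June, so the days overlapped and tree 4 was lowest in June (log2 fold change -0.23 ± 0.48; edgeR adjusted p = 0.909). Its higher level dated from the earlier interval: from 7 to 23 May it rose by 3.29 ± 0.52 (adjusted p = 0.0109). This call and the other calls of carbohydrate rows for that interval came from the 12 dried libraries, and all of them were lost in the fit of 24 libraries and without tree 4 or tree 8. The other 7 invertase rows did not pass the filter on low counts and held 1 to 46 counts over the 12 libraries of the dried trees.

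Of the 11 sucrose synthase rows 3 were positive and 8 negative (median log2 fold change -0.30). Sucsynthase10 stood at 3.56, 3.48 and 5.22 log2 CPM on 23 May and at 3.07, 1.46 and 2.28 on 6 June. The days did not overlap, and tree 12 had the highest value in May and the largest drop, 2.94 (fold change -2.06 ± 0.71; edgeR adjusted p = 0.417). Sucsynthase3 went from 5.69, 4.37 and 5.68 to 3.62, 4.08 and 4.26, again without overlap, though tree 8 differed by only -0.29 between the days (-1.31 ± 0.50; adjusted p = 0.45). Sucsynthase4, chosen after its values were seen, stood at 8.26, 7.42 and 8.53 and then at 6.11, 6.09 and 7.66. It was lower in every tree, but the days overlapped.

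The row sucsynthase1 pointed the other way in every tree, from 7.31, 6.84 and 7.49 log2 CPM to 7.44, 8.50 and 8.01, with most of the difference in tree 8 (0.77 ± 0.43; edgeR adjusted p = 0.595). Tree 4 hardly differed between the days, and the groups overlapped. Sucsynthase11, which fell from 7 to 23 May by 2.21 ± 0.43 (adjusted p = 0.0248), stayed near its May level, at 3.63, 2.94 and 3.58 and then 4.11, 2.73 and 3.37 log2 CPM (0.02 ± 0.42). Its sign depended on the processing.

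In starch synthesis 18 of 22 tested rows had negative log2 fold changes (median -0.52), against 48.8% of all rows, and 4 were lower without overlap, against 5.58% of all rows. Starchsyn2, a starch synthase row, stood at 4.55, 5.01 and 5.01 log2 CPM on 23 May and at 3.33, 3.04 and 4.05 on 6 June. Every tree was lower in June, tree 8 most, by a drop of 1.97. The log2 fold change was -1.38 ± 0.36 (SE, n = 3; edgeR adjusted p = 0.334; DESeq2 adjusted p = 0.0146). Starchsyn3 went from 5.75, 5.03 and 5.58 to 3.33, 3.15 and 4.91 log2 CPM (-1.62 ± 0.42; edgeR adjusted p = 0.319; DESeq2 0.00536). Tree 12 was lowered least, by 0.67. Both rows had log2 fold changes of the other sign from 7 to 23 May, 1.09 ± 0.35 and 1.14 ± 0.41, which did not pass either (edgeR adjusted p = 0.112 and 0.137). Both intervals use the libraries of 23 May, so high values there raise the earlier change and lower the later one. The opposite signs are therefore not separate observations. Starchsyn2 had a mean of 3.77 ± 0.46 log2 CPM on 7 May and of 3.47 ± 0.52 on 6 June (SD, n = 3).

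The branching enzyme row sbe4 showed the same course, with the same limit from the shared libraries of 23 May. It stood at 3.06, 3.20 and 2.82 log2 CPM on 23 May and at 1.54, 1.76 and 0.65 on 6 June, lower by at least 1.43 in each tree, with the days well apart (-1.75 ± 0.46; edgeR adjusted p = 0.337; DESeq2 0.0216). On 7 May its mean had been 2.05 ± 0.24 and on 29 July it was 2.45 ± 0.15 (SD, n = 3), so 6 June was the lowest day. The other 2 tested branching enzyme rows, sbe1 and sbe3, had log2 fold changes of -0.38 and -0.15.

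Starchsyn1 and starchsyn8 already stood low on 23 May. Starchsyn1 had 12, 0 and 7 counts on 23 May and 0, 2 and 0 on 6 June, after 153, 52 and 107 on 7 May. Its pooled ratio between 23 May and 6 June was 9.01 (95% interval 2.17 to 79.8, counting error only, 19 counts against 2). In tree 8 the 0 and 2 counts came from libraries of TMM-scaled size 2001815 and 6202656, so no direction was measured there. The days overlapped (edgeR adjusted p = 0.492). Starchsyn8 fell from 7 to 23 May by 2.26 ± 0.45 (adjusted p = 0.028) and then stood at 1.82, 1.12 and 2.65 and at 2.64, 1.54 and 1.26 log2 CPM. Trees 4 and 8 were higher and tree 12 lower in June (-0.18 ± 0.47).

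The 7 rows of ADP-glucose pyrophosphorylase split. Agp2, which fell by 6.47 ± 0.90 on the log2 scale from 7 to 23 May (edgeR adjusted p = 0.00604), stood at -0.70, 0.22 and 1.76 log2 CPM on 23 May and at 3.41, 1.18 and 3.94 on 6 June. All 3 trees were higher in June, tree 8 least, by 0.96, and the days overlapped (2.52 ± 0.80; adjusted p = 0.396). Its June mean of 2.84 ± 1.47 was still below the 6.57 ± 1.10 of 7 May and the 8.30 ± 0.91 of 29 July (SD, n = 3). Agp3, chosen after its values were seen, was lower without overlap: 15, 4 and 18 counts became 0, 7 and 0, and in tree 8 the level went from 1.12 to 0.37 log2 CPM (-2.45 ± 0.96; adjusted p = 0.455). The log2 fold change of agp3 was -1.38 without tree 12, and the fitted -7.84 without tree 8 rests on 0 counts on 6 June. The median of the family was -0.75, and 5 of its 7 rows were negative.

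Of the 5 glucose-phosphate transporter rows 3 were positive and 2 negative. Gpt3, chosen after its values were seen, had 7, 0 and 2 counts on 23 May and 3, 154 and 27 on 6 June. On the log2 CPM scale these were -0.07, -2.57 and -1.08 and then 0.86, 4.64 and 1.73. The days did not overlap, and tree 8 was highest by far (4.05 ± 1.20; edgeR adjusted p = 0.385; DESeq2 0.0266). Gpt4, chosen likewise, was lower in each tree, from 0.97, 3.41 and 1.21 to -0.48, 1.07 and -0.20 log2 CPM, with overlap (-1.92 ± 0.68; edgeR adjusted p = 0.435). Gpt2, which fell by 5.85 ± 1.16 from 7 to 23 May (adjusted p = 0.0261), stayed low with 0, 0 and 5 counts and then 3, 3 and 1, after 600, 47 and 144 on 7 May.

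In starch degradation 10 of 29 tested rows were positive and 19 negative (median -0.48; 48.8% of all rows were negative). The sign was the same in all 3 trees for 7 lower and 0 higher rows (12.6% and 13% of all rows), and 4 were lower and 0 higher without overlap (5.58% and 7% of all rows). The 12 tested beta-amylase rows had a median of -0.03. Bamylase10, whose level rose by 4.92 ± 0.74 from 7 to 23 May (edgeR adjusted p = 0.00886), stood at 11.14, 10.48 and 11.35 log2 CPM on 23 May and at 9.16, 8.85 and 10.51 on 6 June. It was lower in each tree on 6 June, and the days overlapped because tree 12 in June (10.51) lay just above tree 8 in May (10.48) (-1.43 ± 0.64; adjusted p = 0.518). Its June mean of 9.51 ± 0.88 remained above the 6.05 ± 0.58 of 7 May and the 5.54 ± 0.32 of 29 July (SD, n = 3).

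Bamylase2 rose by 3.45 ± 0.77 from 7 to 23 May (edgeR adjusted p = 0.0385). It then stood at 11.02, 10.71 and 10.69 log2 CPM and on 6 June at 9.98, 10.02 and 11.05, lower in trees 4 and 8 and higher in tree 12 (-0.50 ± 0.69; adjusted p = 0.853). Bamylase6 stood at 3.44, 3.92 and 3.36 and then at 3.62, 2.73 and 2.70, higher in tree 4 only (-0.56 ± 0.40; adjusted p = 0.675). The days overlapped for both rows.

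Among the other starch degradation rows, dpe2, a disproportionating enzyme row, was lower without overlap. It stood at 4.45, 3.48 and 4.21 log2 CPM on 23 May and at 2.50, 2.65 and 3.42 on 6 June, and each tree was lower, tree 4 most (-1.20 ± 0.39; edgeR adjusted p = 0.404). Isoamylase3, a row of the debranching enzymes that was chosen after its values were seen, had one of the evenest shifts: 3.39, 3.27 and 3.63 became 2.36, 2.54 and 2.67 (-0.89 ± 0.36; adjusted p = 0.469). It is counted here with starch degradation, and isoamylase1 and isoamylase2 with starch synthesis. Mex1, a maltose exporter row, had 24, 0 and 19 counts and then 1, 0 and 2. It was lower in trees 4 and 12 and at 0 on both days in tree 8 (edgeR adjusted p = 0.414). The pooled ratio was 13.6 (95% interval 4.35 to 68.5, counting error only, 43 counts against 3). The 5 alpha-amylase rows, which cut starch internally, had 4 positive and 1 negative log2 fold change, and none was without overlap.

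Of the 8 tested hexokinase rows 2 were positive and 6 negative (median -0.81), against 48.8% of all rows negative, and 3 were lower without overlap, against 5.58% of all rows. Hexokinase9 had 35, 5 and 6 counts on 23 May and no counts in any of the 3 trees on 6 June. On 7 May it had held 60, 40 and 41 counts and on 29 July it held 49, 123 and 125. In the dried trees 6 June was thus the only day without it. With 3 counts, the limit that a count of 0 allows, set for the 6 June libraries together, it was at least 14.6-fold lower (46 counts against 0, counting error only). EdgeR did not call it (adjusted p = 0.23, the smallest of the carbohydrate rows), and DESeq2 did (0.00318). Trees 8 and 12 rested on 5 and 6 May counts. Hexokinase2 and hexokinase6, chosen after their values were seen, had log2 fold changes of -0.86 ± 0.48 and -1.64 ± 0.81 (edgeR adjusted p = 0.596 and 0.552). Hexokinase2 differed by -0.20, -2.18 and -0.22 in trees 4, 8 and 12, and its log2 fold change was -0.21 without tree 8 and -1.32 without tree 12. Hexokinase6 differed by -4.79, -1.67 and -0.91, with 0 counts in tree 4 on 6 June.

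**Figure D3:**
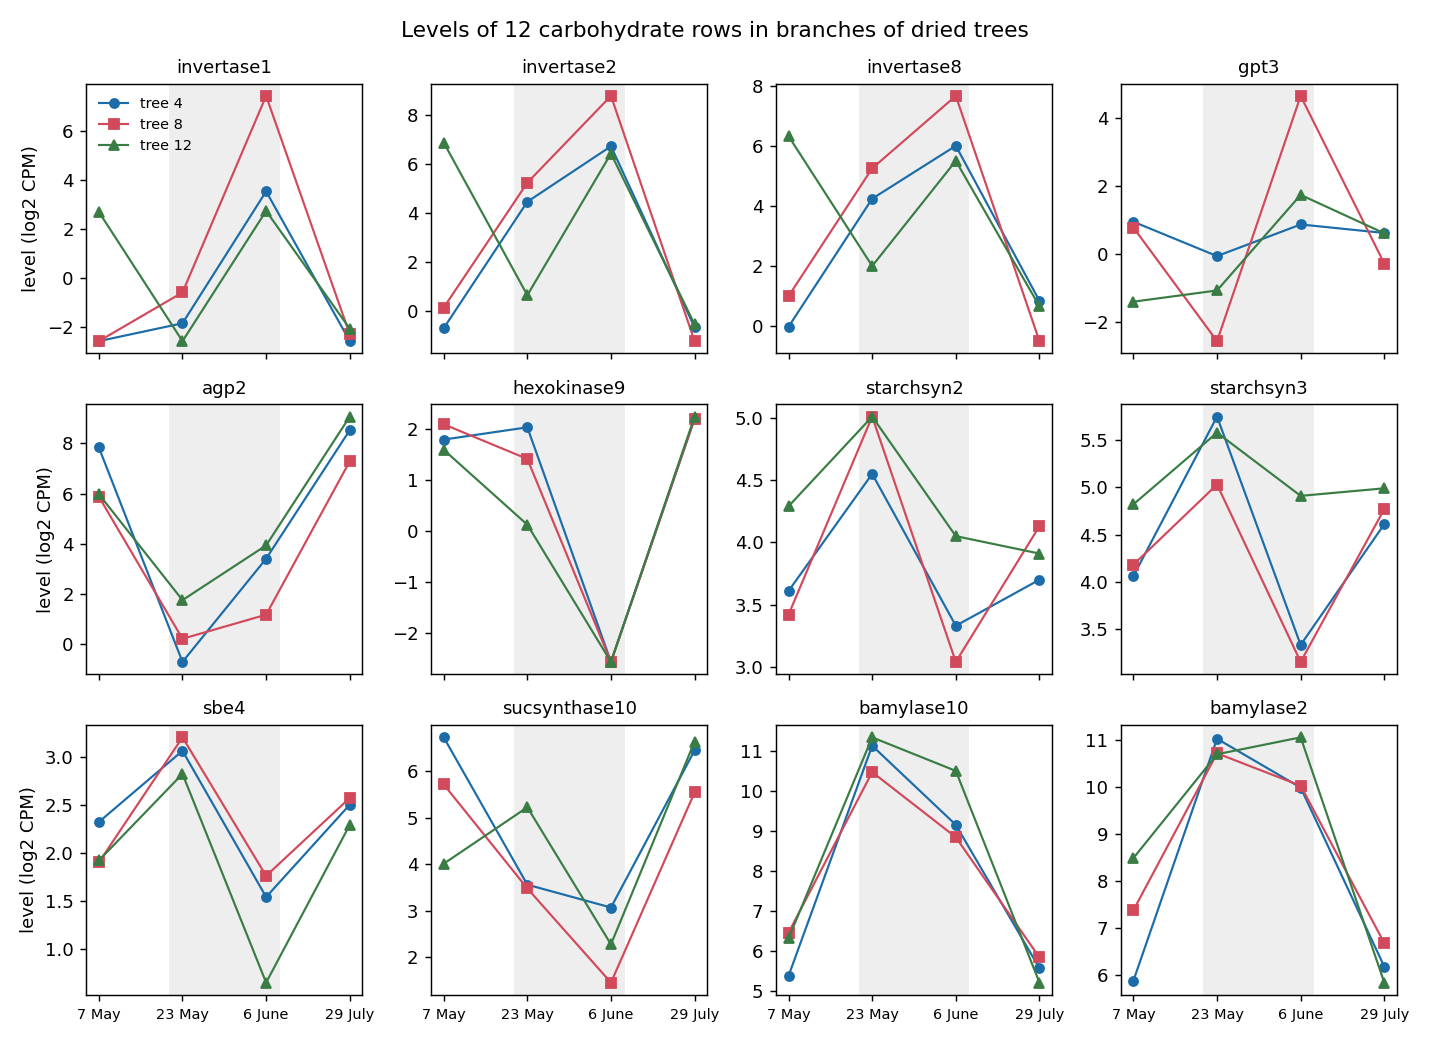
Level in log2 CPM (y axis) of 12 carbohydrate rows in branches of dried trees 4, 8 and 12 on the 4 sampling days (x axis, 1 point per library, lines join the days of a tree, 23 May and 6 June shaded). The 3 invertases stand highest on 6 June in trees 4 and 8, hexokinase9 is at its minimum in all 3 trees on 6 June, and bamylase10 and bamylase2 stand high on both shaded days.

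Over all rows tested the log2 fold changes ran from -10.97 to 11.98. Of the unnamed rows 4 are described, taken from the 50 smallest p-values of this comparison. Each had the same sign in every tree and a mean of at least 1 log2 CPM over the 6 libraries. Among the rows of those 50 that met both conditions, they had the largest log2 fold changes in each direction. Their p-values and lack of overlap therefore follow in part from how they were chosen. Oeu049702.1 had 15, 5 and 5 counts on 23 May and 380, 2993 and 1396 on 6 June, a log2 fold change of 7.64 ± 1.13 (edgeR adjusted p = 0.191). The change was 6.82, 7.50 and 7.45 log2 units in trees 4, 8 and 12. Oeu036069.1 had 1, 0 and 1 counts and then 18, 379 and 109 (8.03 ± 1.59; adjusted p = 0.23). Oeu014109.2 had 204, 21 and 160 and then 2, 0 and 16 (-4.36 ± 0.75; 0.224), and Oeu032046.1 had 474, 78 and 824 and then 17, 21 and 38 (-3.90 ± 0.76; 0.23). None of the 4 overlapped between the days. Oeu032046.1 had risen by 5.22 ± 0.82 from 7 to 23 May (edgeR adjusted p = 0.011), while the other 3 had not passed in that interval.

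The interval from 7 to 23 May, fitted on the same 12 libraries, gave 851 called rows (3.19%), 335 higher and 516 lower on 23 May. Of the 84 carbohydrate rows 9 were called, or 10.7%. Higher on 23 May were aglucan2, bamylase2, bamylase10 and invertase11 (1.26% of all rows were called higher), and lower (1.94% of all rows) were agp2, gpt2, sbe1, starchsyn8 and sucsynthase11. This count was not stable: it was 6 in the fit of all 24 libraries, 133 without the 23 May library of tree 8, 1 without tree 4 and 7 without tree 8. None of the rows called in the fit of 24 libraries, without tree 4 or without tree 8 was a carbohydrate row. Both intervals use the libraries of 23 May, and whether the number of calls differs between them was not tested. The median absolute log2 fold change over all rows was 0.80 from 7 to 23 May and 0.62 from 23 May to 6 June. For the carbohydrate rows it was 0.96 and 0.67.

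**Figure D4:**
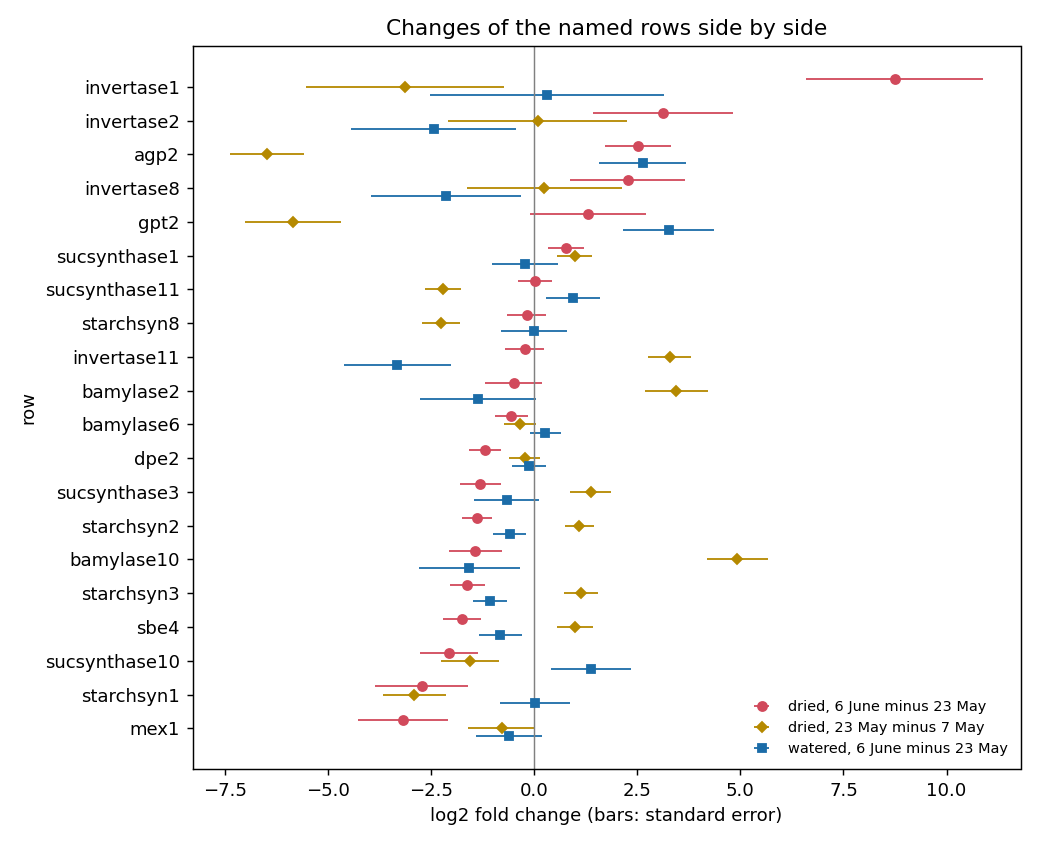
Log2 fold change with its standard error (x axis) of the carbohydrate rows named by rule (y axis, hexokinase9 left out because it had no counts in dried trees on 6 June) in dried trees from 23 May to 6 June, in dried trees from 7 to 23 May and in watered trees from 23 May to 6 June. Agp2 (-6.47) and bamylase10 (4.92) have their larger values in the earlier interval and invertase1 (8.74) in the later; the 2 dried intervals share the libraries of 23 May.

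Watered trees gave no called row between the same days either (0% of 29107, 1642 or 5.64% at an unadjusted p under 0.05 by edgeR; DESeq2 called 353). The test of the difference itself, the change in dried minus that in watered trees, also called none (0%, smallest adjusted p 0.476, 2202 or 7.57% at an unadjusted p under 0.05; DESeq2 called 378). With only the 12 libraries of the 2 days, edgeR called 4 rows for this difference, all unnamed, among them Oeu049702.1 (7.25 ± 0.86, adjusted p = 0.0366). Agp2 had a log2 fold change of 2.63 ± 1.05 in watered trees, and the difference between the arms was -0.16 ± 1.54 (SE). Watered levels, scaled over all 24 libraries, were 2.64, 3.26 and 4.10 log2 CPM on 23 May and 8.21, 4.91 and 4.63 on 6 June in trees 3, 9 and 11. Bamylase10 had -1.57 ± 1.22 in watered trees, with a difference of 0.13 ± 1.59. Starchsyn3 had -1.07 ± 0.41 in watered trees, with a difference of -0.57 ± 0.58. For starchsyn2 these values were -0.59 ± 0.40 and -0.82 ± 0.57, and for sbe4 -0.82 ± 0.52 and -0.95 ± 0.73. For gpt3 they were 0.33 ± 1.38 and 3.73 ± 2.10.

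Of the 84 carbohydrate rows 4 had an unadjusted p under 0.05 for the difference between the arms, a smaller share than the 7.57% of all rows, and none passed (smallest adjusted p 0.625 by edgeR). They were aamylase4 (1.92 ± 0.79), gpt4 (-2.67 ± 1.04), sucsynthase10 (-3.45 ± 1.40) and hexokinase9, the first 2 chosen after their values were seen. Hexokinase9 stood at 2.41, -2.54 and 2.01 log2 CPM on 23 May and at 2.21, 2.36 and 3.03 on 6 June in watered trees, so it was detected in all 3 in June. The invertases had positive differences of 8.34 ± 4.31 for invertase1, 5.54 ± 2.73 for invertase2 and 4.38 ± 2.46 for invertase8 (adjusted p = 0.671, 0.662 and 0.698). In watered trees 3, 9 and 11 invertase2 stood at 3.20, 2.47 and 1.60 log2 CPM on 23 May and at -0.01, 0.97 and 0.66 on 6 June. The watered log2 fold changes, which enter these differences, were 0.31 ± 2.83 for invertase1, -2.44 ± 1.99 for invertase2 and -2.13 ± 1.82 for invertase8 (SE). One watered library stood high for these rows. Tree 9 on 7 May stood at 9.31 for invertase1, 9.90 for invertase2 and 9.72 for Oeu049702.1, against -2.20 and -1.11 for invertase1 in the watered trees 3 and 11 of that day. The same library was also high for gpt3 (4.06) and low for sucsynthase10 (-0.85). Its hexokinase9 level was -2.54, a count of 0, against 2.10 and 2.68 in trees 3 and 11. Starchsyn2 (3.23 against 3.49 and 4.35) and starchsyn3 (4.06 against 4.44 and 4.49) stood nearer to the other watered trees. That library is not part of the comparison, but enters the fit of 24 libraries. It bears on the estimate of spread and, through the term for its tree, on the fitted changes. Without it the difference between the arms again gave 0 calls (smallest adjusted p 0.14).

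In the authors' deposited table the column named for the first and second drought groups lists 296 genes with an adjusted p under 0.05, of 24455 with a value (1.21%). The labels do not say which groups those are. Its log2 fold changes correlated across genes at r = 0.94 in size with the tree-blocked ones, with the opposite sign, so it is read here as 23 May against 6 June and its sign is turned. So read, the authors' deposited table has 181 genes higher and 115 lower on 6 June. Among the carbohydrate rows the authors' deposited table has hexokinase9 (adjusted p = 0.0121), starchsyn3 (0.001), starchsyn2 (0.0213) and sbe4 (0.0285), all lower on 6 June. For invertase1 the authors' deposited table gives 7.89 (adjusted p = 0.0792) and for gpt3 4.31 (0.0935). Of its 296 genes 241 were also among the 545 that DESeq2 called with the tree as a block.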

How the data were processed

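Poly-A RNA of olive branches was sequenced, and the submitters' processing notes list limma, DESeq2, Bowtie2, RSEM and cutadapt, while versions, roles and the genome build are not given in the sources used here. A deposited table of expected counts (50663 rows) was rounded to whole numbers. The authors' second table holds scaled signal values, and their comparison table holds log2 fold changes and p-values, per the file headers; depth behind the latter is not given there. All per-sample columns were used, and no 2 libraries were identical. None of the 50663 row IDs matched the RefSeq gene table of the assembly O_europaea_v1, so no names, coordinates or sequences were added.

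Counts were tested with edgeR 4.0.16 (R 4.3.3; quasi-likelihood, TMM, filterByExpr by group) on the 12 libraries of the dried trees with tree and day as terms, which left 6 residual degrees of freedom. The watered trees and the difference between the arms came from all 24 libraries with tree and day per arm (12 residual degrees of freedom). Adjusted p-values are Benjamini-Hochberg over all rows tested, threshold 0.05, two-sided. Each standard error is the size of the fold change divided by the root of its F statistic. Levels are in log2 CPM (prior count 2), where -2.57 is a count of 0 in the dried libraries (-2.54 on the scale of all 24); rows have no lengths in the files, so levels are not compared between rows. A ratio is pooled counts over TMM-scaled library sizes. Intervals are exact binomial on pooled counts and cover counting error only, not the spread between trees. Total counts were 6675182 to 14122752 over the 24 libraries. The edgeR, DESeq2 and limma fits of the dried trees from 23 May to 6 June were tested on simulated data; the fits of all 24 libraries were not.

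The pairing by tree comes from the labels, since each tree was sampled on every day. Deviations from the group means of 23 May and 6 June correlated at -0.16, 0.01 and -0.02 in trees 4, 8 and 12. Named rows are those without overlap between the days, differing by 1 log2 unit or more and with a mean of at least 1 log2 CPM (12 at most per direction). Also named are 16 rows that earlier results had singled out. Added to these are 2 unnamed IDs per direction, taken by size from the 50 smallest p-values. These IDs had the same sign in every tree and a mean of at least 1 log2 CPM. The members, lists and rules were chosen with earlier results of these data known. Alternatives were no block, all 24 libraries, the 6 libraries alone, DESeq2 1.42.0, its size factors, no filter, limma 3.58.1 on log2(scaled value + 1), voom with quality weights, no dominant rows and each tree left out; fits without single libraries were added after seeing the data.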

Additional observations from a re-analysis of the deposited data

How the results depend on the processing

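From 23 May to 6 June in dried trees edgeR called 0 rows also with the 24 libraries, DESeq2's size factors, without the 29 dominant rows (those with at least 1% of any library), any tree left out (0 to 0) and the 3 fits without the 6 June library of tree 4, the 23 May library of tree 8 or both, and so did limma on the authors' scaled values and with voom weights. Without the tree as a block edgeR called 1 (Oeu017939.1, -10.22 ± 1.07, chosen after its value was seen), with the 6 libraries alone 20, all higher, with no filter 699, and DESeq2 with the block 545. Carbohydrate rows called were 1 with the 6 libraries alone (invertase1), 7 with no filter and 5 by DESeq2, and 0 without the block. All of them were among the 84 carbohydrate rows of the main test. With the 6 libraries alone, 20 carbohydrate rows were positive and 48 negative. Over all rows the calls were 20 of 17776 with the 6 libraries alone and 699 of 46668 with no filter. They were 545 of 24048 (2.27%) by DESeq2 and 1 of 26659 without the block. Whether carbohydrate rows were called more often than all rows was not tested. The causes of the differences between fits were not tested either. For 7 to 23 May, counts other than 851 were 1781 without the block, 4041 by DESeq2, 3739 with no filter, 6 with 24 libraries, 133 without the 23 May library of tree 8, 86 without that and the 6 June library of tree 4, and 1 to 1424 with a tree left out (tree 4 gave 1, tree 8 gave 7, tree 12 gave 1424). DESeq2 called 353 rows in watered trees and 378 for the difference between the arms, where the 12 libraries of the 2 days gave 4, Oeu049702.1 among them. Signs were followed over the fits for 34 rows, not for every row in the text. These were the rows named by rule and the carbohydrate rows with an unadjusted edgeR p under 0.05 or without overlap. Of the 34 rows, 4 changed sign in some fit. Sucsynthase11 was at -0.02 with no filter, -0.02 without dominant rows, -0.14 with voom weights, -0.29 and -0.16 without the 6 June library of tree 4 and the 23 May library of tree 8, -0.52 without both, and -0.23 to 0.13 with a tree left out. Invertase11 was at 0.15 without the 6 June library of tree 4, 0.12 without both, and -0.60 to 0.24 with a tree left out. With a tree left out gpt2 ran from -0.39 to 7.25 and starchsyn8 from -0.70 to 0.59. The fitted 7.25 of gpt2 rests on 0 counts on 23 May in trees 4 and 8 and is no measure of size. Without tree 8 gpt3 was at 2.43, sucsynthase1 at 0.34, bamylase6 at -0.22 and starchsyn1 at -6.94. This value of starchsyn1 rests on 0 counts on 6 June in trees 4 and 12 and is no measure of size either. Without tree 12 sucsynthase10 was at -1.35 and starchsyn1 at -1.66. Without tree 4 bamylase2 was at -0.13 and bamylase6 at -0.96. The counts outside the dominant rows in tree 8 on 23 May and tree 4 on 6 June limit the rows that can be seen in them.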
